A study of Homo sapiens with 7 samples.

Results

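Huh7, a human hepatoma cell line, was examined after 6 h with IFN-λ4, against cells of the same line that received no interferon. The comparison sets the array titled IFN-λ4-6h, from cells given 20 ng/ml of IFN-λ4, against the array titled Non-treatment, labelled 0 h, so it uses 2 of the 7 arrays in the study. The other 5 arrays held cells given the same dose of IFN-λ4 for 16 h, 20 ng/ml of IFN-λ1 for 6 h or 16 h, and 10 U/ml of IFN-α for 6 h or 16 h. All cells had been plated the night before. The untreated cells are therefore not matched to the treated ones for time in culture, and interferon and time since plating cannot be told apart against them. Each condition is 1 array of total RNA labelled with Cy5, so there was no replicate check on any difference, and none is given a p-value. The members are all genes whose probes carried 1 gene symbol, which gave 18336 genes from 24740 of 31741 probes. Of these, 12835 genes lay above a dim level, set as the 30th percentile of the gene means over the 7 arrays (a normalized intensity of 265), and 5501 did not. Values are normalized intensities after quantile normalization of the 7 arrays, each gene is represented by its probe with the highest mean, and a level is compared only with the level of the same probe on another array.

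Type III interferons, the IFN-λ family, bind a receptor made of IFNLR1 and IL10RB, which is found mainly on epithelial cells and hepatocytes. Type I interferons such as IFN-α use IFNAR1 and IFNAR2 instead. Both receptors signal through the kinases JAK1 and TYK2 to STAT2 and IRF9, parts of the complex ISGF3, which binds the interferon-stimulated response element (ISRE) in the promoters of antiviral genes. IFN-λ4 is encoded by a gene that only some people can translate, and the allele that allows it is known for its association with poorer clearance of hepatitis C virus. Metallothioneins, small cysteine-rich proteins that hold zinc and copper, are driven from metal response elements bound by MTF1.

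The promoters of 6 of the genes with the largest positive differences are shown because they carry the letters of the elements just named. The first 4 belong to antiviral genes, with the ISRE core in capitals: IFIT1 (chr10:89392373-89392622, plus strand), IFI6 (chr1:27672193-27672442, minus strand), EPSTI1 (chr13:42992242-42992491, minus strand) and ISG15 (chr1:1013247-1013496, plus strand). The last pair belongs to metallothioneins, with the metal response element core in capitals: MT1X (chr16:56682220-56682469, plus strand) and MT2A (chr16:56608334-56608583, plus strand). Each is the 250 bases upstream of the gene's start, 5′ to 3′, from RefSeq on GRCh38.p14.
IFIT1: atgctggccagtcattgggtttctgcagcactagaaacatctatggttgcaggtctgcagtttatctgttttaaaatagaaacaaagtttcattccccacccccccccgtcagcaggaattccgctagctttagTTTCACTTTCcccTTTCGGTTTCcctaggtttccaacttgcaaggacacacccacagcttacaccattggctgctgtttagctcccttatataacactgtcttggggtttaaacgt
IFI6: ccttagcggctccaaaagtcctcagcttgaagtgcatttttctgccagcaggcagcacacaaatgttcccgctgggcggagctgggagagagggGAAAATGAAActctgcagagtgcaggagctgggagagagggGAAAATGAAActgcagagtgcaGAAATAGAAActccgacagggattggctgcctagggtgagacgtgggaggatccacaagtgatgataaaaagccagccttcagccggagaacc
EPSTI1: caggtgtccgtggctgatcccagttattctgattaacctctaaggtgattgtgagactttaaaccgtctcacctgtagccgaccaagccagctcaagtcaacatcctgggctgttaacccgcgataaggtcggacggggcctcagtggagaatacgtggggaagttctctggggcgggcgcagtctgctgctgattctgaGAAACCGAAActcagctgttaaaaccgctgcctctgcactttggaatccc
ISG15: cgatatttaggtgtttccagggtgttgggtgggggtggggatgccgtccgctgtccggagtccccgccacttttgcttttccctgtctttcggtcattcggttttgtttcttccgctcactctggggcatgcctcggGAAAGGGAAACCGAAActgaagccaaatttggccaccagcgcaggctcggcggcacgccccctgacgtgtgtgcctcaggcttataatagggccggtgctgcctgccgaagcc
MT1X: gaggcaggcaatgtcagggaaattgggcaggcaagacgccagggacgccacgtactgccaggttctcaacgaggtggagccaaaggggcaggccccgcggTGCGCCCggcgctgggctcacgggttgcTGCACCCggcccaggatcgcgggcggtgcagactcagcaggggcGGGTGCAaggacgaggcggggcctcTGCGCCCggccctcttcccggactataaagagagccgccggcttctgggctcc
MT2A: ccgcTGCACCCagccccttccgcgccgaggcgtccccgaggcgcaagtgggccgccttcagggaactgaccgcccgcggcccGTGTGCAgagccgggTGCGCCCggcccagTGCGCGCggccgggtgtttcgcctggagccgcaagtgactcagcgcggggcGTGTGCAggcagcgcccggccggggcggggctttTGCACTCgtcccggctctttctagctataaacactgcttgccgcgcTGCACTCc
The ISRE core searched was GAAA, any 2 bases and GAAA again, read on both strands, and the metal response element core was TGCACNC or TGCGCNC, also on both strands. IFIT1 held 2 ISRE cores, IFI6 held 3, EPSTI1 held 1 and ISG15 held 2 that overlap by 4 bases. MT1X held 4 metal response cores and MT2A held 7. Over all 35116 RefSeq windows of 300 bases (250 before and 50 after the start), 3.57% held an ISRE core and 29.6% a metal response core. The metal response core is thus a common string, and a match to either is a description of these letters only.

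On the array of 6 h with IFN-λ4, 262 of the 12835 genes (2.04%) were at least 2-fold higher than on the untreated array, and 158 (1.23%) were at least 2-fold lower. Leaving out 5 genes set by single low readings of the untreated array (LRRC20, MPEG1, TMEM165, MAP2K4 and MAP3K2, described further on), the highest were antiviral genes: IFIT1, whose protein binds viral RNA that lacks host cap marks, was 47.5-fold higher, IFI6 was 34.6-fold higher and OAS1, a sensor of double-stranded RNA that makes the activator of RNase L, was 29.4-fold higher. The metallothioneins MT1E and MT1X were 20.1-fold and 14.6-fold higher. The lower side was shallower, with 5 genes at least 4-fold lower against 42 at least 4-fold higher and 20 at least 8-fold higher. The 42 and the 20 each include the 5 genes left out above, and the lower ones include ADIPOQ, also described further on. In 53 of the 262 higher genes the untreated reading itself lay below the dim level, so their folds depend on a weak signal. Among the lower genes were SLC39A10, a zinc importer, at 4.99-fold lower, and FADS2, a fatty acid desaturase, at 3.32-fold lower. Over all genes above the dim level the median log2 difference was 0.03, and the 5th and 95th percentiles were -0.68 and 0.71.

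The split between directions depended on how the arrays were scaled. With each array centred on its median, the counts were 448 higher and 109 lower, so that 80.4% of the genes past 2-fold were higher, against 62.4% after quantile normalization. With the deposited scaling they were 195 higher and 312 lower, or 38.5% higher. Median centring moved the median of all genes to 0.22, and the deposited scaling moved it to -0.04. The genes with the largest differences kept their direction under both: IFIT1 was 5.57 on the log2 scale after quantile normalization, 5.84 after median centring and 5.58 as deposited, and SLC39A10 was -2.32, -2.11 and -2.37.

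**Figure D1:**
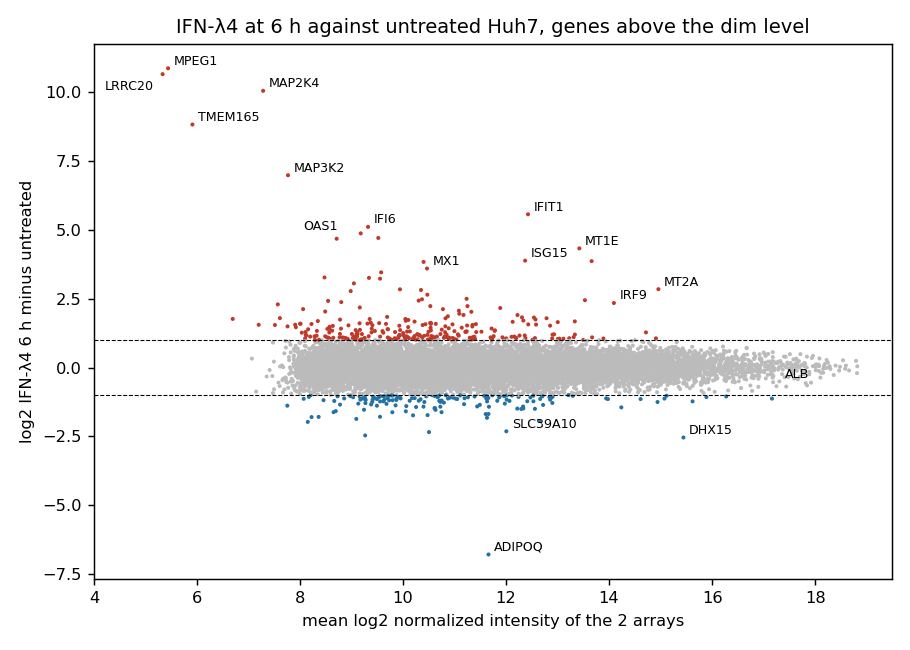
Log2 difference of the IFN-λ4 6 h array minus the untreated array (vertical) against the mean log2 normalized intensity of both arrays (horizontal), 1 point per gene above the dim level, with dashed lines at 2-fold. Red points are the 262 genes at least 2-fold higher and blue points the 158 at least 2-fold lower. IFIT1 and MT1E stand high at bright levels, while LRRC20, MPEG1, MAP2K4, TMEM165, MAP3K2 and ADIPOQ lie far from the rest and are described in the text.

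Some of the outermost points rest on a single reading of the untreated array. LRRC20 had a deposited intensity of -1.99 there and 1549 at 6 h of IFN-λ4, MPEG1 had -5.98 and 1804, TMEM165 had 1.99 and 1209, and MAP2K4 had 3.99 and 5079, with 0.819 at 6 h of IFN-λ1 as well. In quantile-normalized values, LRRC20 lay between 1325 and 1624 on all 6 treated arrays. MPEG1 has another probe, which lay below the dim level on both arrays. MAP3K2 was at 19.3 untreated and between 2208 and 4031 on the treated arrays, and ADIPOQ was at 34073 untreated and between 200 and 307 on the treated ones. Without genes of this kind (6 genes whose untreated value lies over 3 log2 units from 6 treated arrays that lie close together, ISG15 being among them) the counts were 257 higher and 157 lower. That alternative was chosen after the data were seen. LRRC20, MPEG1, TMEM165, MAP2K4, MAP3K2 and ADIPOQ are left out of the description of named genes from here on. PADI1, a peptidylarginine deiminase chosen after its values were seen, lay below the dim level on the mean, but read 3297 untreated, 2252 at 6 h of IFN-λ1 and 147 at 6 h of IFN-λ4.

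The ISG15 and IFIT genes show how the 6 h IFN-λ4 array stood among the 7. IFIT1 read 798 untreated, 37934 at 6 h and 53515 at 16 h of IFN-λ4, 44988 and 72209 at the same times of IFN-λ1, and 182669 and 15914 of IFN-α. Its other probe gave a log2 difference of 5.54, against 5.57 for the one used. All 6 treated arrays were thus far above the untreated one, and 6 h of IFN-α was the highest. IFIT3, a partner of IFIT1, read 183 untreated, 1526 and 1274 at 6 h and 16 h of IFN-λ4, 1630 and 1976 of IFN-λ1, and 9280 and 453 of IFN-α. IFIT5 was 4.36-fold higher at 6 h of IFN-λ4, from 128 to 557. IFIT2 was below the dim level, at 41.6 untreated, 222 at 6 h of IFN-λ4 and 7151 at 6 h of IFN-α. ISG15, the ubiquitin-like protein that is joined to other proteins in the response, read 1377 untreated, 20344 and 30979 under IFN-λ4, 21210 and 36338 under IFN-λ1, and 41429 and 45032 under IFN-α. ISG15 read higher at 16 h than at 6 h with each interferon, whereas IFIT1 and IFIT3 read lower at 16 h than at 6 h with IFN-α.

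The OAS genes make the messenger that activates RNase L, and their products differ in size. OAS1 read 107 untreated, 3142 and 4118 at 6 h and 16 h of IFN-λ4, 3211 and 5827 of IFN-λ1, and 10248 and 8457 of IFN-α. OAS3 was 14.3-fold higher at 6 h of IFN-λ4, from 357 to 5107, and 10437 at 16 h. The second OAS3 probe read at the floor of 1 on both arrays and so measured nothing. OAS2 was 2.05-fold higher by the probe used, from 1053 to 2158, another probe went from 43.6 to 363, and the last lay below the dim level on both arrays. OASL, an OAS-like protein without synthetase activity in humans, was 5.20-fold higher, from 196 to 1017. All 4 of these genes were thus at least 2-fold higher by the probe used.

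Genes acting at other steps of infection were also among the highest. MX1, a dynamin-like GTPase that traps viral nucleocapsids, read 406 untreated, 4922 and 9543 at 6 h and 16 h of IFN-λ4, 5713 and 10736 of IFN-λ1, and 5559 and 3592 of IFN-α. Its 6 h IFN-λ4 value was close to that at 6 h of IFN-α. MX2 differed by 0.08 on the log2 scale, from 14289 to 15134. IFITM1, which restricts viral fusion at membranes, was 25.7-fold higher, from 82.7 to 2123, and IFITM3 was 4.54-fold higher, from 268 to 1219, while IFITM2 was at 639 and 764. IFI6, a mitochondrial and endoplasmic reticulum membrane protein, read 109 untreated, 3759 and 15059 under IFN-λ4, 4072 and 14919 under IFN-λ1, and 7678 and 10499 under IFN-α. The second IFI6 probe gave a log2 difference of 3.63 at 6 h of IFN-λ4, against 5.11 for the one used. IFI6 and IFITM1 were among the genes with higher readings at 16 h of IFN-λ4 than at 6 h. BST2, which tethers budding virions, was 3.40-fold higher at 6 h (from 56.1 to 191) and read 492 at 16 h. RSAD2, the gene of viperin, was below the dim level but read 6.43 untreated, 169 at 6 h of IFN-λ4, 170 at 6 h of IFN-λ1 and 1279 at 6 h of IFN-α.

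**Figure D2:**
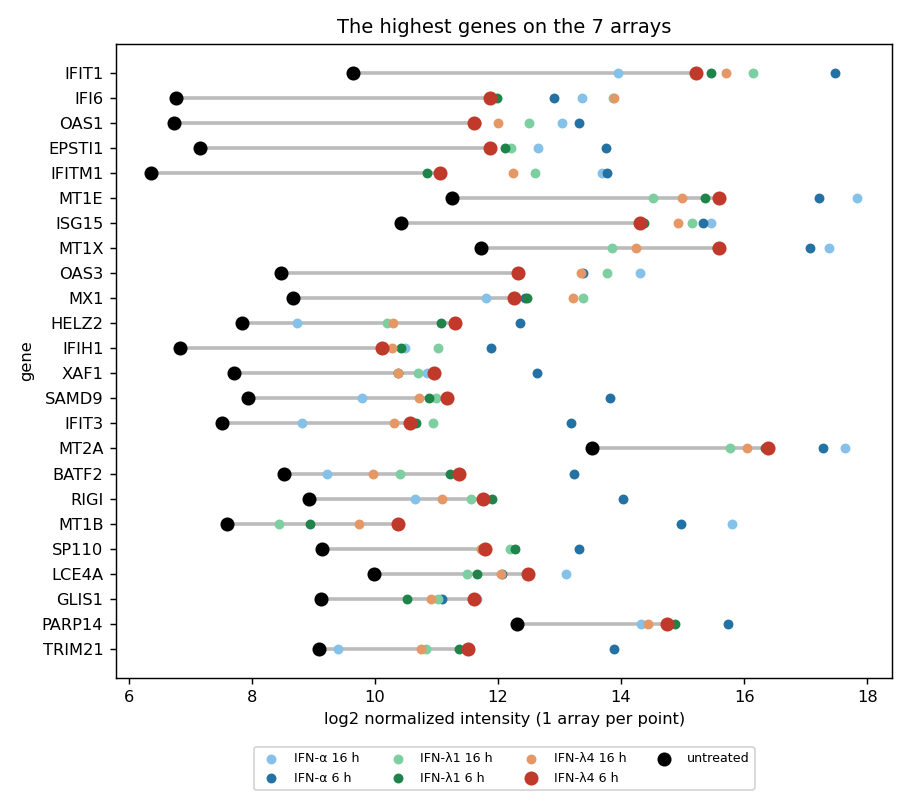
Log2 normalized intensity of the 24 genes with the largest positive difference, leaving out MAP3K2, on all 7 arrays, with a grey bar from the untreated array (black) to the IFN-λ4 6 h array (red) and 1 array per point. The untreated array is the lowest of the 7 for all 24 genes, and the IFN-λ4 6 h array is the highest for none of them. The genes were chosen by their difference from the untreated array, which favours a low rank for it.

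Among the other high genes were EPSTI1 (26.2-fold, from 143 to 3757), HELZ2 (from 230 to 2531), a helicase coactivator, SAMD9 (9.39-fold, from 245 to 2304), a restriction factor of poxviruses, and XAF1 (9.57-fold, from 209 to 2003), a partner of the apoptosis inhibitor XIAP. The other EPSTI1 probes gave log2 differences of 2.25 and 4.10, against 4.71 for the one used. HELZ2 had a second probe above the dim level with a log2 difference of 0.50, and the second probe of XAF1 lay below that level. BATF2, a basic leucine zipper factor, was 7.17-fold higher by its brighter probe, and the other lay below the dim level. SP110, a nuclear body protein, was 6.27-fold higher, and its probes agreed in direction at 2.65 and 3.26. TRIM21, an antibody receptor in the cytosol and a ubiquitin ligase, was 5.40-fold higher. PML, the organiser of nuclear bodies, was 3.54-fold higher by the probe used, from 2696 to 9546. A PML probe of similar untreated level went down, from 2666 to 2128, and the remaining ones gave -0.37 and 1.09 on the log2 scale. Outside the antiviral genes, LCE4A, a cornified envelope gene, was 5.65-fold higher by its brighter probe, with the other below the dim level, and GLIS1, a zinc finger factor, was 5.58-fold higher. Both read between the untreated level and the IFN-λ4 6 h level at 6 h of IFN-α, as the plot of the highest genes shows. Where a gene has several probes above the dim level, they did not always move together: of 48 such genes at least 2-fold higher, 32 had all probes positive and 12 had all probes past 2-fold. Over 3095 genes with several such probes, the root mean square spread between probes was 0.47 on the log2 scale.

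Of 58 antiviral effectors in a list written from general knowledge with earlier results of these data known, 57 were on the array and 45 lay above the dim level. Of all 57, 32 were at least 2-fold higher and 0 lower, with a median log2 difference of 1.39, beside 409 and 254 of all 18336 genes and a median of 0.03. Of the 45, 27 were at least 2-fold higher and 0 lower, with a median of 1.59. In 14 of the 45 the untreated reading was under the dim level, so that they passed only through treated arrays. Kept by the untreated array alone, 31 members were counted, of which 14 were at least 2-fold higher and 0 lower, with a median of 0.99, beside 209 and 168 of 12828 genes. The untreated array read lowest of the 7 for all 27, beside 10.7% of all genes. The 27 were chosen for reading above that array, which favours this rank. Of all 262 genes at least 2-fold higher, the untreated array read lowest for 82.4%. All 27 lay within 2-fold of their level at 6 h of IFN-λ1, as 98.9% of all genes did, and 15 of 27 read higher with IFN-λ4 (53.2% of all genes). All 27 read higher at 6 h of IFN-α than at 6 h of IFN-λ4, beside 48.3% of all genes. At 16 h of IFN-λ4, 13 of 27 read higher than at 6 h, near the 45.2% of all genes. Counted in the same way against the same untreated array, 26 of 45 were at least 2-fold higher at 16 h of IFN-λ4, 25 at 6 h of IFN-λ1 and 33 at 6 h of IFN-α. The shares of all genes past 2-fold there were 0.989% higher and 0.203% lower at 16 h of IFN-λ4, 1.07% and 0.662% at 6 h of IFN-λ1, and 3.9% and 2.83% at 6 h of IFN-α. The list's median was 1.32 at 16 h of IFN-λ4, 1.45 at 6 h of IFN-λ1 and 2.92 at 6 h of IFN-α. A further 18 of the 45 lay inside 2-fold, among them EIF2AK2, the kinase PKR, at 0.41 and IFI44L at -0.24. The other IFI44L probe gave 0.48. EIF2AK2 read 1216 untreated, 1614 at 6 h and 3719 at 16 h of IFN-λ4. The 12 members below the dim level included IFI27, at 42.7 untreated and 151 at 6 h. In RNA from a whole culture, a large difference in some cells and a smaller one in all of them cannot be told apart.

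In the 300-base windows, an ISRE core was present in 20 of 37 antiviral effectors above the dim level that had a window (54.1%), and in 30 of 188 genes at least 2-fold higher (16%), 16 of 37 genes at least 4-fold higher (43.2%), 7 of 124 genes at least 2-fold lower (5.65%) and 3.91% of 10525 genes above the dim level. Of the 25 highest genes 24 had a window, and 12 of these held one. OAS1, HELZ2, XAF1 and RIGI held none in this window, which says only that these letters are absent from it.

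ISG15 and the genes that attach it to proteins or remove it had a median of 1.38. Of 6 members above the dim level, 5 were at least 2-fold higher (4 with the deposited scaling), beside 2.04% of all genes. HERC6, at 105 untreated, passed the dim level only through treated arrays. Kept by the untreated array alone, 4 of 5 members were higher, with a median of 1.10. Beside ISG15 itself, TRIM25, a ligase that also acts on RIG-I, was 3.16-fold higher, HERC6 was 3.48-fold higher, and the conjugating enzyme UBE2L6 was 2.14-fold higher, from 2666 to 5706. USP18, which removes ISG15 and blocks the type I receptor, read 1302 untreated, 2772 and 6187 at 6 h and 16 h of IFN-λ4, 4973 and 11359 of IFN-λ1, and 8629 and 4650 of IFN-α. USP18 was thus 2.13-fold higher at 6 h of IFN-λ4, the lowest of its 6 treated arrays, and its other probe gave 2.13 on the log2 scale. The antiviral PARPs, enzymes and binders of ADP-ribose, were higher in 5 of 6 members with a median of 1.74. PARP14 was 5.45-fold higher, from 5067 to 27632, PARP10 was 4.70-fold, PARP12 2.96-fold, and DTX3L, the ligase partner of PARP9, 3.76-fold. ZC3HAV1, the zinc finger antiviral protein, was the member inside 2-fold, at 0.16 on the log2 scale.

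By the probes used, the receptor chains and Janus kinases did not pass 2-fold. Of 8 above the dim level, 0 were past 2-fold in either direction, and the median was -0.03. Over all genes, 2.04% were higher and 1.23% lower, so 0 of 8 is near those shares. IL10RB, the shared chain of the IFN-λ receptor, read 1259 untreated and 1292 at 6 h. IFNLR1, the chain specific to IFN-λ, lay below the dim level, at 254 and 316. TYK2 was the farthest from 0, at -0.90 on the log2 scale, from 2081 to 1119, with 2129 at 16 h of IFN-λ4, 1230 and 2050 at 6 h and 16 h of IFN-λ1 and 565 and 1445 of IFN-α. JAK1 was at 0.34 by the probe used and -1.30 by its other probe.

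Among transcription factors of the STAT and IRF families, 3 of 11 were at least 2-fold higher and 0 lower, with a median of 0.42. Beside this and the list counts below, 2.04% of all genes were higher and 1.23% lower. IRF9, the DNA-binding part of ISGF3, read 7749 untreated, 39394 and 35370 at 6 h and 16 h of IFN-λ4, 47205 and 31635 of IFN-λ1, and 63313 and 40871 of IFN-α. IRF9 was 5.08-fold higher, and its probes gave 2.35 and 4.09. IRF1, which sustains a secondary wave of transcription, was 2.81-fold higher, from 1550 to 4364, and read 19221 at 6 h of IFN-α. STAT2 was 2.17-fold higher by the probe used and -0.39 on the log2 scale by the other. IRF7, the factor that amplifies type I interferon, was below the dim level, at 77.3 and 107. The cytosolic RNA sensors IFIH1 (MDA5) and RIGI were 9.68-fold and 7.06-fold higher, and by the probes used they were the only 2 of 14 members of the sensing list past 2-fold. IFIH1, at 114 untreated, passed the dim level only through treated arrays. Kept by the untreated array alone, 1 of 12 members was at least 2-fold higher and 0 lower, beside 209 and 168 of 12828 genes. The second probe of RIGI gave 0.47. MYD88, an adaptor of Toll-like receptors in that list, was at -0.44 by the probe used, while its second probe went from 3238 to 9131, a log2 difference of 1.50. Of 16 genes of negative feedback, USP18 alone passed 2-fold. SOCS1, an inhibitor of Janus kinases, was at -0.85, from 1521 to 842, and SOCS3 was at 0.26.

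**Figure D3:**
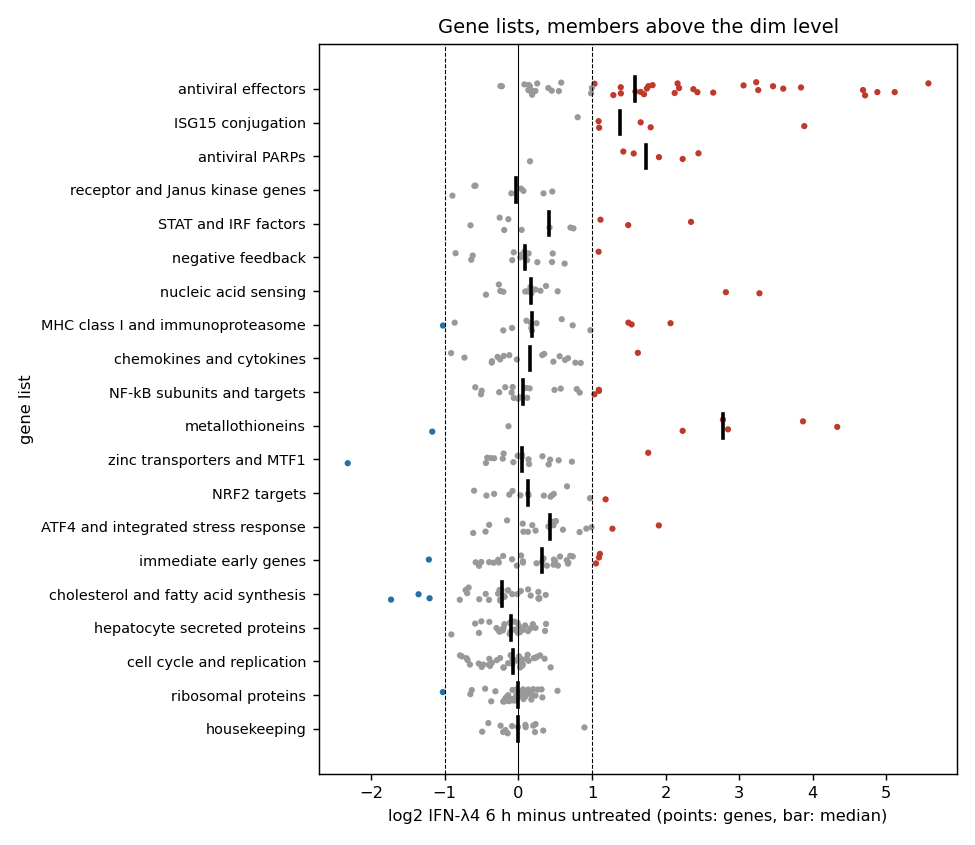
Log2 difference of the IFN-λ4 6 h array minus the untreated array for the members above the dim level in the named gene lists, with 1 point per gene, a black bar at the list's median and dashed lines at 2-fold. Most antiviral effectors, ISG15 conjugation genes, PARPs and metallothioneins lie right of the 2-fold line, and receptors, cell cycle, ribosomal and housekeeping genes lie around 0.

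Genes of antigen presentation and inflammation were mostly inside 2-fold. The shares beside the counts below are 2.04% of all genes at least 2-fold higher and 1.23% lower. TAP1, which carries peptides into the endoplasmic reticulum, was 4.19-fold higher, from 1060 to 4445, and the immunoproteasome subunits PSMB9 and PSMB8 were 2.91-fold and 2.82-fold higher. They were 3 of 15 members of the MHC class I list, and NLRC5, the activator of class I genes, was the 1 lower member, at 2.03-fold lower by the probe used and -0.31 on the log2 scale by the other. B2M, the light chain of class I, was at -0.08, from 76758 to 72379. Of 31 constitutive proteasome subunits, 0 were higher and PSMA1 was 2.34-fold lower. CXCL10, a chemokine for activated T cells, read 223 untreated and 280 at 6 h of IFN-λ4, against 8320 at 6 h of IFN-α, and CXCL11 lay below the dim level. Of 18 chemokine and cytokine genes, TNFSF10, the gene of the death ligand TRAIL, alone passed 2-fold, at 3.08-fold higher, though its other probe gave 0.07. CCL5 read 3601 untreated, 5313 at 6 h of IFN-λ4 and 1840 at 6 h of IFN-λ1. The NF-kB genes IER3, RELB and CYLD were between 2.05-fold and 2.14-fold higher, 3 of 20 in that list, whose median was 0.06. That count was 1 with the deposited scaling and 5 under median centring, and the second CYLD probe gave 0.04 on the log2 scale. Of 9 interferon-gamma type targets above the dim level, 0 passed 2-fold in either direction.

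The metallothioneins were the group with the highest median, 2.78, with 5 of 7 members at least 2-fold higher, beside 2.04% of all genes. MT1B was under the dim level untreated and passed only through treated arrays. Kept by the untreated array alone, 4 of 6 members were higher and 1 lower, with a median of 2.54. The counts over all 12828 genes kept in that way were 209 and 168. MT1E read 2445 untreated, 49263 and 32380 at 6 h and 16 h of IFN-λ4, 42300 and 23500 of IFN-λ1, and 151429 and 234031 of IFN-α. MT1X read 3389 untreated, 49460 and 19491 with IFN-λ4, 48298 and 14852 under IFN-λ1, and 138192 and 170478 under IFN-α. MT2A, a widely expressed form, read 11850 untreated, then 85328 and 68006 with IFN-λ4, 82973 and 55681 with IFN-λ1, 158984 and 204320 with IFN-α. For these 3 genes both IFN-λ readings were lower at 16 h than at 6 h, whereas the IFN-α readings were higher at 16 h. MT1A was 4.70-fold higher, from 1124 to 5281, and MT1B was 6.87-fold higher, from 193 to 1327. MT1B read 495 at 6 h of IFN-λ1, a direct log2 difference of 1.42 in favour of IFN-λ4. MT3, known mainly from brain, was 2.25-fold lower, from 1020 to 454, and MT4, a form of stratified epithelia, was at -0.13. Metallothionein transcripts resemble one another closely. The probe sequences were not used here, so how much of a probe's reading belongs to a neighbouring paralog was not tested. Of the 4 metallothioneins above the dim level that had a RefSeq window, all 4 held a metal response core, as did 44.4% of all genes above the dim level and 46.3% of genes at least 2-fold higher.

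Zinc transporters had a median of 0.05, with 1 member past 2-fold in each direction, beside 2.04% of all genes higher and 1.23% lower. SLC30A1, which exports zinc across the plasma membrane and is itself a target of MTF1, was 3.40-fold higher. It read 573 untreated, 1948 and 855 at 6 h and 16 h of IFN-λ4, 1917 and 1047 of IFN-λ1, and 4101 and 3128 of IFN-α. SLC39A10, which imports zinc, was 4.99-fold lower: it read 9177 untreated, 1841 and 7120 under IFN-λ4, 3321 and 7562 under IFN-λ1, and 1793 and 1053 under IFN-α. For both genes the IFN-λ readings at 16 h lay nearer the untreated level than those at 6 h, whereas both IFN-α readings lay far from it. They were 2 of 19 members, and the others lay inside 2-fold. Of 15 NRF2 targets, HMOX1, the heme oxygenase, alone passed 2-fold, at 2.27-fold higher, from 943 to 2145, against 21292 at 6 h of IFN-α.

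Stress and immediate early genes gave small counts, to be read beside 2.04% of all genes at least 2-fold higher and 1.23% lower. Of 20 targets of ATF4, the factor of the integrated stress response, NUPR1 was 3.76-fold higher, from 2464 to 9253, and CHAC1, which degrades glutathione, was 2.43-fold higher, with a list median of 0.42. ASNS, the asparagine synthetase, was at 0.92 on the log2 scale. Of 31 immediate early genes, JUNB, IER3 and JUN were 2.16-fold, 2.14-fold and 2.08-fold higher and EGR3 was 2.32-fold lower. JUN read 10531 untreated, 21880 and 9778 at 6 h and 16 h of IFN-λ4, 15862 and 11986 of IFN-λ1, and 31635 and 27901 of IFN-α. GADD45B, a growth arrest gene, was 3.14-fold higher and was the 1 of 24 p53 and apoptosis genes past 2-fold. Heat shock proteins and genes of the unfolded protein response, 19 of each above the dim level, held 0 past 2-fold. Their medians of -0.20 and -0.24 turned to 0.15 and 0.12 under median centring.

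Genes of the circadian clock and of hormone or nutrient response were noticed among the higher genes after their values were seen. DBP, an output factor of the clock, was 3.02-fold higher, from 365 to 1103, and its other probe lay below the dim level. HLF, its relative, was 2.55-fold higher with both probes positive, and KLF9, a glucocorticoid-responsive factor, was 3.32-fold higher, from 603 to 2000. These were 3 of 14 members of a clock list written after the fact, where 2.04% of all genes passed 2-fold upward. Because their high values were noticed first, that choice favours the count, which is a description only. In the same list the core genes CLOCK and CRY1 were at -0.09 and -0.10. KLF9 read 2000 and 2065 at 6 h and 16 h of IFN-λ4, 1798 and 1932 of IFN-λ1, and 2904 and 2374 of IFN-α, so it read above the untreated level on all 6 treated arrays. Also high were CLDN7, a tight junction protein (3.88-fold, its other probe at -0.03), NNMT, which methylates nicotinamide (2.97-fold), REC8, a meiotic cohesin (4.35-fold), and MLXIPL, the glucose-responsive factor ChREBP (2.57-fold). Of 22 genes of hepatocyte metabolism, CPT1A, the gatekeeper of fatty acid entry into mitochondria, alone passed 2-fold, at 2.46-fold higher, beside the same 2.04%.

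At 16 h of IFN-λ4, 157 of the 158 lower genes read higher than at 6 h, where 45.2% of all genes did, and 212 of the 262 higher genes read lower than at 6 h, where 54.7% of all genes did. Both sets were chosen for an extreme reading at 6 h, which favours a less extreme reading on any other array. In 114 of the 158 (72.2%), both 6 h IFN-λ arrays lay below the untreated array and both 16 h IFN-λ arrays, and in 113 of the 158 the 6 h IFN-α array did so as well. Over all 12835 genes, the shares of these patterns were 18.7% and 11.8%. For the same reason these shares are a description. For the higher genes the mirror pattern, with both 6 h IFN-λ arrays above the untreated and both 16 h IFN-λ arrays, held for 128 of 262 (48.9%), beside 25.1% of all genes. The median log2 difference of the lower genes was -1.16 at 6 h and -0.19 at 16 h of IFN-λ4, -0.55 and -0.13 at 6 h and 16 h of IFN-λ1, and -1.06 and -0.62 of IFN-α, all against the same untreated array. For the higher genes the corresponding medians were 1.29 and 0.79, 0.98 and 0.67, and 1.17 and 1.16.

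GRK2, a kinase that desensitises receptors, shows the pattern. It read 3274 untreated, 644 and 2019 at 6 h and 16 h of IFN-λ4, 1129 and 1776 of IFN-λ1, and 241 and 660 of IFN-α. AGPAT2, an enzyme of triglyceride and phospholipid synthesis, was 3.84-fold lower, and its other probe gave -1.49 on the log2 scale. AGPAT2 read 12478 untreated, 3252 and 8803 under IFN-λ4, 5235 and 8788 under IFN-λ1, and 1130 and 4127 under IFN-α. GINS1, part of the replicative helicase, was 3.65-fold lower, from 1043 to 286. PI4KA, the lipid kinase on which hepatitis C virus depends for replication, read 1396 untreated, 404 and 1059 under IFN-λ4, 652 and 1299 under IFN-λ1, and 482 and 529 under IFN-α. PI4KA was 3.46-fold lower and was the 1 of 18 host factors of that virus past 2-fold, beside 1.23% of all genes lower. RIF1, a protein of replication timing and repair, CCNG2, an atypical cyclin, and SERINC1 were 3.94-fold, 3.47-fold and 3.34-fold lower. CCNG2 has a second probe at -0.23. Of 27 lower genes with several probes above the dim level, 19 had all probes negative and 3 had all past 2-fold.

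**Figure D4:**
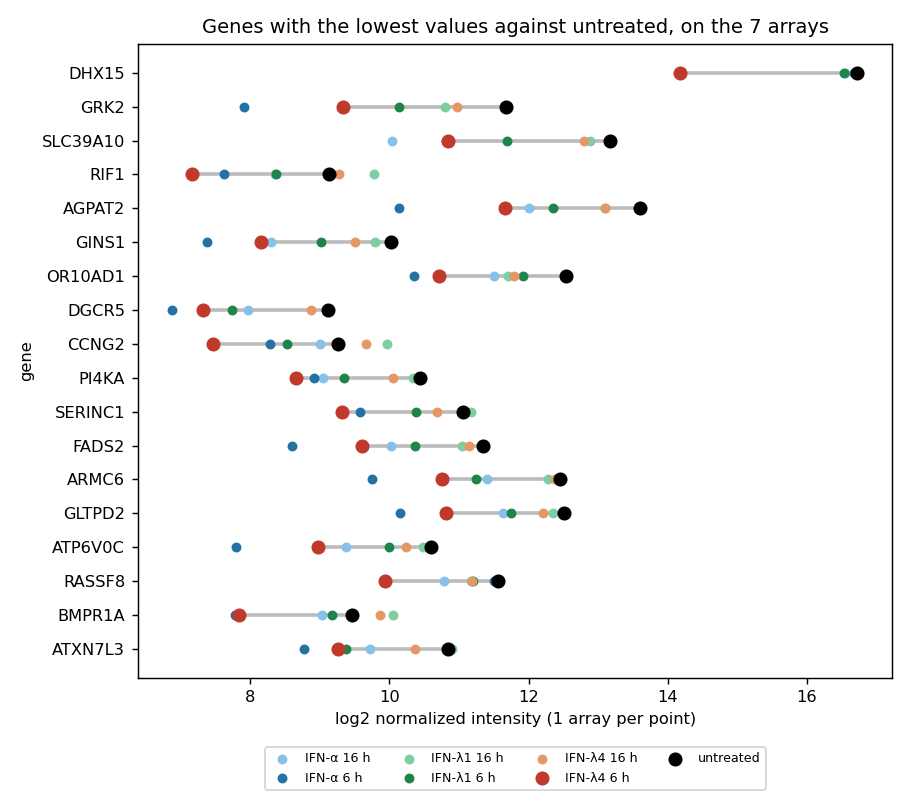
Log2 normalized intensity of 18 genes among those with the largest negative difference, leaving out ADIPOQ, on all 7 arrays, drawn as for the highest genes. For 16 of the 18, the 6 h arrays of all 3 interferons lie below the untreated array and both 16 h IFN-λ arrays, the exceptions being OR10AD1 and RASSF8. For DHX15 the IFN-λ1 and IFN-α readings at 6 h are only slightly below untreated.

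DHX15 stood apart from the other lower genes. This RNA helicase of the spliceosome read 18448 at 6 h of IFN-λ4 and between 94254 and 108932 on the other 6 arrays, so its 5.83-fold difference is a reading of this array alone, with 1 probe. RASSF8, a candidate tumour suppressor, read 3017 untreated and 979 at 6 h of IFN-λ4, and between 1769 and 2910 on the other 5 treated arrays. Its second bright probe gave -1.25, and a last one lay below the dim level. For DHX15 and RASSF8, the 6 h arrays of IFN-λ1 and IFN-α thus lay near the untreated level.

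Genes of cholesterol and fatty acid synthesis held 3 of 29 members at least 2-fold lower and 0 higher, beside 1.23% and 2.04% of all genes. FADS2 read 2593 untreated, 782 and 2267 at 6 h and 16 h of IFN-λ4, 1326 and 2104 of IFN-λ1, and 388 and 1044 of IFN-α. MVK, the mevalonate kinase, was 2.56-fold lower, from 4601 to 1798, and SREBF2, the factor that drives the pathway, was 2.31-fold lower, from 1922 to 833. The list median was -0.23 and turned to 0.14 under median centring, while FADS2, MVK and SREBF2 were at -1.63, -1.18 and -1.11 there. MVK and SREBF2 read 3174 and 1631 at 16 h of IFN-λ4, nearer the untreated level, as FADS2 did.

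The liver character of the cells was examined through its marker genes. Of 9 liver markers, 7 were on the array and all 7 lay above the dim level: ALB read 192806 untreated and 136036 at 6 h, AFP 369505 and 306180, APOB 154590 and 117653, APOA1 261393 and 265317, and TTR 211489 and 225483. Of the 7, 3 read higher at 6 h, and their median was -0.01. Of 29 secreted proteins of hepatocytes, 20 hepatocyte transcription factors and 43 cell cycle genes, 0 were past 2-fold in either direction. Across the whole array above the dim level, 2.04% passed 2-fold upward and 1.23% downward. Counts of 0 in lists this small, here and below, are near those shares and say little about liver character. Of 42 ribosomal proteins RPL15 alone passed 2-fold, at 2.04-fold lower, though its other probe gave 0.20. The 15 housekeeping genes had a median of 0.00 and 0 past 2-fold. Markers of other cell types were checked as well: of 8 leukocyte markers above the dim level, MS4A1, a B cell marker, was 2.31-fold higher, from 360 to 832, while PTPRC, present on all leukocytes, was below the dim level at 44.4 on both arrays. The summed intensity of the leukocyte markers above the dim level was 20595 untreated and 23032 at 6 h. Fibroblast, endothelial and bile duct markers (5, 4 and 5 above the dim level) held 0 past 2-fold. So did 36 genes of oxidative phosphorylation and, by the probes used, 27 hypoxia and glycolysis genes, of which PFKL had a second probe at -2.02, from 5217 to 1284. In addition 1 of 16 histone genes, the linker histone H1-10, was 2.01-fold lower.

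Set directly against IFN-λ1 at the same time and dose, without the untreated array, 73 genes (0.569%) were at least 2-fold higher with IFN-λ4 and 66 (0.514%) lower, and 12696 of 12835 genes lay within 2-fold. The direct comparison has 1 array a side and no replicate. The outermost were single readings of the IFN-λ1 array, such as TXNDC12, at 23651 with IFN-λ4, 335 with IFN-λ1 and between 16704 and 20630 on the other 5 arrays, and TINF2, at 19147 and 663. Of the antiviral effectors above the dim level, 0 of 45 were past 2-fold in either direction. CCL5, a chemokine, was at 1.53 on the log2 scale, MT1B at 1.42 and TSNAXIP1 at 1.46, from 1491 to 4116. CSF2RA, a cytokine receptor chain, was at -1.48, 648 with IFN-λ1 and 233 with IFN-λ4. DHX15 and BMPR1A, a receptor for bone morphogenetic proteins, were at -2.35 and -1.34.

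Set directly against 16 h of the same interferon, 131 genes (1.02%) were at least 2-fold higher at 6 h and 203 (1.58%) lower. CYP1B1, a monooxygenase induced by the aryl hydrocarbon receptor, read 589 untreated, 1915 at 6 h and 293 at 16 h of IFN-λ4, 1575 and 376 of IFN-λ1, and 2962 and 910 of IFN-α. Against untreated, its 6 h level was 3.25-fold higher and its 16 h level 2.01-fold lower. CYP1A1, another target of that receptor, read 21463 untreated, 38323 at 6 h and 10941 at 16 h of IFN-λ4, and 33944 and 9465 of IFN-λ1. In a list of 8 such targets above the dim level, written after these values were seen, CYP1B1 alone was past 2-fold against untreated at 6 h. Of all genes, 2.04% were higher and 1.23% lower in that comparison. DUSP22, a phosphatase, was 3.64-fold higher than untreated at 6 h, from 981 to 3568, and read 896 at 16 h. Of the antiviral effectors, 2 of 45 were at least 2-fold higher at 6 h, HELZ2 and OASL, and 6 of 45 were higher at 16 h: IFI6, IFITM1, OAS3, IFITM3, EIF2AK2 and BST2. RPS28, a ribosomal protein, read 2.48 at 16 h of IFN-λ4 and between 215846 and 254429 on the other 6 arrays, and so heads this comparison by 1 spot.

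**Figure D5:**
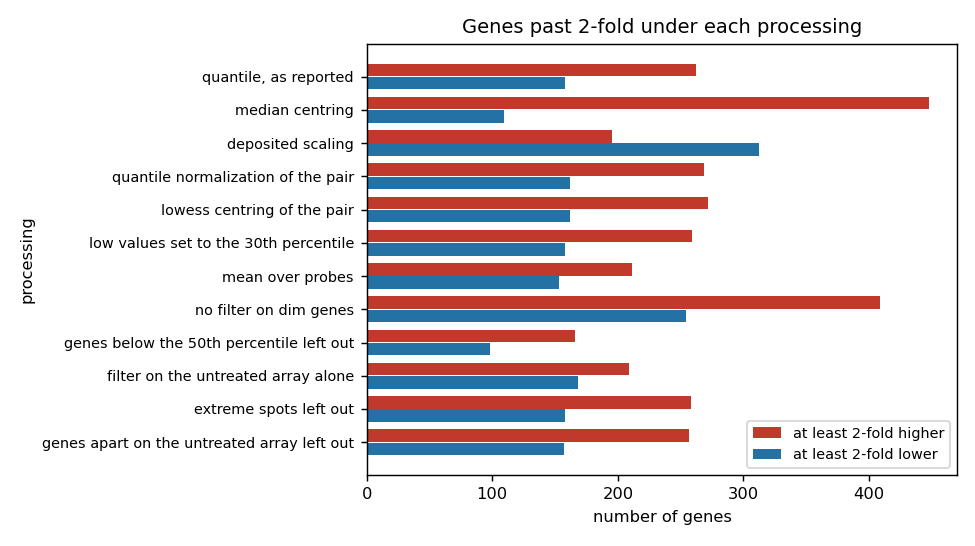
Number of genes at least 2-fold higher (red) and lower (blue) at 6 h of IFN-λ4 against untreated, for each way of processing the same arrays, with bars that start at 0. The higher count runs from 166 to 448 and the lower count from 98 to 312, and the deposited scaling is the one setting shown with more lower than higher genes.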

How the data were processed

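The table held 1 intensity per probe and array for 31741 probes, on a linear scale, as the authors deposited it. How the values were scaled and with what scanner is not given in the sources used here. Per the labels' protocols, RNA was extracted with Trizol, amplified with amino allyl nucleotides and labelled with Cy5, so each array has 1 colour. Gene symbols came from the platform annotation: 24740 probes had 1 symbol, 977 several and 6024 none, and against RefSeq names 22722 were current, 1948 were updated and 70 were kept. Intensities were set to at least 1, turned to log2 and quantile normalized over the 7 arrays (Python 3.11.15, numpy 2.4.6, pandas 2.3.3; lowess from statsmodels 0.14.6, figures from matplotlib 3.10.9). Each gene took its probe with the highest mean. A gene was counted when its log2 difference was at least 1 in size. With 1 array per condition no test was made, and the number of arrays limits the precision.

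Named genes are the 25 highest and 20 lowest above the dim level without an extreme spot, the 4 farthest members of each list, up to 10 and 5 per direction against the nearest arrays, a set of interferon genes, and genes with an extreme spot (under the 1st percentile of an array while the median of the others is above the 50th, or above the 97.5th while it is below). Members, rules and the 37 lists were chosen with earlier results of these data known. Some of the genes these rules pick are not reported here. The code was tested on simulated data. Probes with no single symbol were not named: of 3369 above the dim level, 96 (2.85%) were at least 2-fold higher and 76 (2.26%) lower.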

Additional observations from a re-analysis of the deposited data

Results flagged for a closer look

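CYP1B1 read on opposite sides of the untreated array at the 2 times of IFN-λ4: its log2 difference from untreated was 1.70 at 6 h and -1.01 at 16 h, each from 1 array and 1 probe. Both differences share the untreated array, and the difference between them was not tested. The probe read 589 untreated, and with IFN-λ1 it read 1575 at 6 h and 376 at 16 h.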

How the results depend on the processing

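The count of genes at least 2-fold higher, 262, became 448 under median centring, 409 with no filter on dim genes, 166 with only genes above the 50th percentile kept, 1040 at 1.5-fold and 76 at 3-fold. The count of lower genes, 158, became 312 with the deposited scaling, 254 with no filter, 98 with that stricter filter, 925 at 1.5-fold and 20 at 3-fold. Quantile normalization of the pair alone gave 269 and 162, lowess 272 and 162, the mean over probes 211 and 153, raising low values to the 30th percentile 259 and 158, a filter on the untreated array alone 209 and 168, and leaving out extreme spots 258 and 158. The filters that gave other counts tested other numbers of genes, and for the scalings the cause was not tested.

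Among the list medians farther from 0, 3 changed direction, all under median centring. Heat shock proteins went from -0.20 to 0.15, the unfolded protein response from -0.24 to 0.12, and cholesterol and fatty acid synthesis from -0.23 to 0.14. Several medians nearer 0 changed sign as well. Under median centring, hepatocyte secreted proteins went from -0.09 to 0.30 and cell cycle genes from -0.08 to 0.27. With the deposited scaling, chemokines and cytokines went from 0.15 to -0.03. The median of the antiviral effectors was 0.99, against 1.59, when genes were kept by their level on the untreated array alone, a filter that removes members which are dim without interferon. For the named genes, 48 values under these settings moved by more than the spread between probes and 1236 moved by less. The count of reversals was 0, but some small differences did change sign without being counted. AFP went from -0.27 to 0.16 under median centring, and IL10RB from 0.04 to -0.13 with the deposited scaling. No paired analysis was possible because each condition has 1 array. No array could be left out for the same reason, and low signal limits what can be said of the 5501 dim genes.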

Other observations

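Families that the described lists do not cover were counted after their values were seen. Of 124 olfactory receptor genes above the dim level, 8 (6.45%) were at least 2-fold higher and 3 (2.42%) lower, beside 2.04% and 1.23% of all genes. The direction depended on the scaling: as deposited, 4 were higher and 9 lower, beside 195 and 312 of all 12835 genes. Of 309 zinc finger genes named ZNF, 1 passed 2-fold upward and 0 downward with IFN-λ4 at 6 h. With IFN-α at 6 h the counts were 24 and 3, against the same untreated array. The shares of all genes were 2.04% and 1.23% with IFN-λ4 and 3.9% and 2.83% with IFN-α. Of 32 late cornified envelope and keratin-associated genes, 3 were higher and 0 lower, and LCE4A was one of them. LGALS3BP, a secreted glycoprotein, was 3.07-fold higher, from 842 to 2583, and read 4246 at 16 h. MMP11, a matrix metalloprotease, was 3.20-fold higher, from 5774 to 18468, and read between 14518 and 20806 on the other 5 treated arrays. PLSCR1, a phospholipid scramblase of the interferon response, was 3.36-fold higher with 1 probe and -0.18 on the log2 scale with the other. OTUD1, a deubiquitinase, was 3.23-fold higher at 6 h of IFN-λ4, from 181 to 584, and read between 259 and 405 on the other 5 treated arrays.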
